A study of Mus musculus with 24 samples.

Results

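Killer lectin-like receptors (Klr genes) are a family of surface receptors of natural killer cells and of effector and memory CD8 T cells, and 8 of them were followed here through sorted CD8 T cells of mice. The members were Klrk1, Klrd1, Klrc1, Klrc2, Klrg1, Klrb1c, Klra7 and Klre1, taken by symbol from the 24421 genes counted in each library. The data hold 36 Klr symbols, and the 8 members had 50841 counts over all libraries, 95.3% of the counts of that family. Of the 28 other Klr symbols, 17 had at least 1 count and 11 had none, with 2497 counts in all.

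These receptors bind surface proteins of other cells and raise or lower the threshold at which a T cell or natural killer cell acts. NKG2D, encoded by Klrk1, binds stress-induced ligands and signals through the adaptor encoded by Hcst. CD94, encoded by Klrd1, pairs either with NKG2A (Klrc1), which carries inhibitory motifs, or with NKG2C (Klrc2), which activates through the adaptor encoded by Tyrobp, and both pairs read the MHC class Ib molecule Qa-1 (H2-T23). Klrg1 is an inhibitory receptor for cadherins and a marker of terminally differentiated effector T cells, Klrb1c is the activating receptor known as NK1.1, Klra7 is the inhibitory receptor Ly49G, and Klre1 is a further lectin-like receptor of natural killer cells.

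Total RNA of sorted CD45+CD3+CD8+ cells was sequenced in 24 libraries, each called here by its title (P8 stands for pancreas, B8 for blood). KC mice, a mouse model of pancreatic cancer, gave 12 pancreas libraries: 3 each at ages of 4 and 13 weeks and 2 each at 9, 20 and 30 weeks. The 9 blood libraries of KC mice comprised 3 at 13 weeks, 2 each at 4 and 30 weeks, and 1 each at 9 and 20 weeks. WT B6 mice gave 2 pancreas libraries, of 9 and 30 weeks, and 1 blood library of 30 weeks. The labels give no treatment, no allele beyond the names KC and WT, and no animal for a library, so p-values measure only the spread between these libraries, which may be technical. In such bulk samples, fewer cells that express a gene and less RNA per cell cannot be told apart.

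Counts in genes ran from 6352070 to 16716169 per library with a median of 9602258, so that 1 count was worth 0.0598 to 0.157 CPM (counts per 1000000 counts in genes). Markers of CD8 T cells (6 of 9 listed genes are in the data) summed to 6095 to 17983 CPM in KC libraries. Markers of natural killer cells, all 7 in the data, summed to 0.721 to 80.9 CPM in KC pancreas (median 7.84). In KC blood they summed to 0.579 to 101 CPM (median 17.8). The defining receptor gene Ncr1 had 18 counts in 3 libraries, Fcgr3 19 in 7 and Itga2 124 in 12. Cd244 had 772 in 13, Tyrobp 957 in 22, Nfil3 1312 in 18 and Fcer1g 2590 in 23. Myeloid markers summed to 1.88 to 288 CPM in KC pancreas (median 43.6) and 2.54 to 393 in KC blood (median 4.90). For B cells the ranges were 0.543 to 95.1 and 0.364 to 72.8 CPM, and for CD4 T cells 29.5 to 159 and 21.7 to 90.2 CPM. Genes very high in a single library had low counts elsewhere, called traces here. By these traces the 24 libraries were split into 2 groups of 12, called carry-over sets here. Such a gene was detected in 93.7% of the other libraries of its own set, at a median of 0.206% of its level. In libraries of the other set this share was 46.1%. The split was made from the detection of these same genes, with the number of groups fixed at 2. The gap between the shares thus describes the split and does not test it. The 3 WT libraries, Sample_42B8, Sample_43B8, Sample_131B8 and the pancreas libraries of 4- and 13-week-old KC mice formed set 1. Set 2 consisted of the remaining 6 libraries of KC blood and 6 of KC pancreas, the latter aged 9, 20 or 30 weeks. No label names a batch, and the origin of the traces was not tested.

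All 8 genes lie on chromosome 6 (mm10): Klrg1 at chr6:122270596-122282882, and the others between chr6:128778485 (the start of Klrb1c) and chr6:130233322 (the end of Klra7). Klrk1 (chr6:129610323-129623864), Klrc2 (chr6:129647496-129660689) and Klrc1 (chr6:129666015-129678973) are neighbours on the minus strand, while Klrd1 (chr6:129591782-129598775) and Klre1 (chr6:129577905-129585827) lie on the plus strand. The promoters of the 3 neighbours are shown because Klrk1 and Klrc1 were high in many of the same libraries, whereas Klrc2, which lies between them, was barely detected. They are RefSeq promoters of build GRCm38.p6, 5′ to 3′ on the minus strand, from 250 bases before the start to 50 after it, and capitals mark matches to TGTGGTT (Runx) or TGANTCA (AP-1).
Klrk1, chr6:129623815-129624114: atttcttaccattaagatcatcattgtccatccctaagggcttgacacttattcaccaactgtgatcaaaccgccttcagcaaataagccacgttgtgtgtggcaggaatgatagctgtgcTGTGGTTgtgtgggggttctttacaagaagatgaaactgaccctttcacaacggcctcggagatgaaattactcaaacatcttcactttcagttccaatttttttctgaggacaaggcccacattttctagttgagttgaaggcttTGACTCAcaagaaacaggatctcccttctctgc
Klrc2, chr6:129660507-129660806: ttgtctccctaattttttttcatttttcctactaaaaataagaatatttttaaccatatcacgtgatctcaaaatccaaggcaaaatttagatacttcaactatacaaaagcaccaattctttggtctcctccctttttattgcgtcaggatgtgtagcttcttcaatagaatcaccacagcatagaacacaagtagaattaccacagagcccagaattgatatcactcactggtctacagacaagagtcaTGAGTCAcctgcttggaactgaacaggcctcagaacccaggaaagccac
Klrc1, chr6:129678924-129679223: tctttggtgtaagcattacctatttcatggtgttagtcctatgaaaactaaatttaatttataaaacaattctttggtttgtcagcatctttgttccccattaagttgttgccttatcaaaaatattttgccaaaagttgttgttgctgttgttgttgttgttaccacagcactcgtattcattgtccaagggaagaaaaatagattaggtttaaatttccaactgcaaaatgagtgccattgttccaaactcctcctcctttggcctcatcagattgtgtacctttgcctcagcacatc
The Klrk1 promoter held a Runx match that begins 129 bases before the start and an AP-1 match 17 bases after it, the Klrc2 promoter held an AP-1 match 1 base after its start, and the Klrc1 promoter held no match. A second entry for Klrc2, from a start further upstream, held the same AP-1 match. Searched on both strands, these letters occur in 5.27% (Runx) and 7.81% (AP-1) of the 32851 promoters of the table. The T-box letters AGGTGTGA, found in 1.28% of promoters, matched none of the member promoters in the table. Promoter entries of Klrb1c and Klra7 held no match, and 1 of the entries of Klre1 held a Runx match 229 bases before the start. Klrd1 and Klrg1 had no entry.

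The CD94 gene, Klrd1, had the highest median of the 8 genes per kilobase of exon. As the median over 24 libraries, in CPM per kilobase of exon, Klrd1 reached 29.3, Klrc1 7.78, Klrk1 7.77, Klrg1 1.87, Klrb1c 1.61, Klrc2 0.0117, and Klra7 and Klre1 0. Libraries varied widely around these medians, with SDs of 59.6 for Klrd1, 50.1 for Klrc1 and 15.6 for Klrk1. No test compared the genes with each other. These SDs describe libraries and leave aside that all 8 genes were read in the same libraries. Klrd1 was the highest member in 17 libraries, Klrc1 in 3 (Sample_94P8, Sample_302P8 and Sample_303B8), Klrk1 in 3 (Sample_42B8, Sample_133B8 and Sample_W1P8) and Klrg1 in 1 (Sample_131P8). The order at the top depended on the length used: with the longest principal transcript, Klrk1 (44.0 CPM per kilobase) stood beside Klrd1 (41.9), since the exons of Klrk1 span 7183 bases and its principal transcript 1270. On that scale Klrd1 was the highest member in 12 libraries, Klrk1 in 7, Klrc1 in 4 and Klrg1 in 1.

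**Figure D1:**
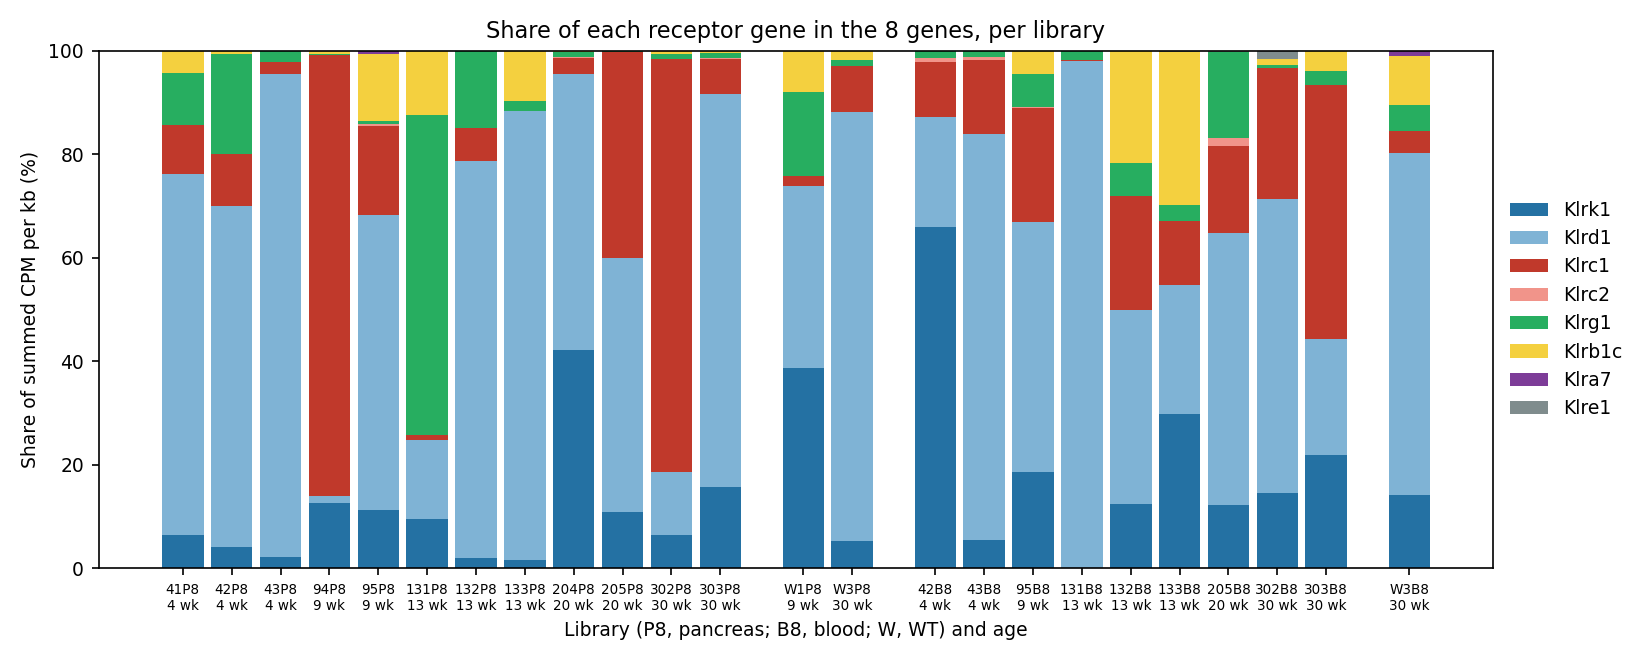
Share of each receptor gene in the summed CPM per kilobase of exon of the 8 genes (vertical axis, %), with 1 bar per library, grouped by genotype and tissue and ordered by age. Klrd1 took 97.9% of the bar in Sample_131B8 and 93.4% in Sample_43P8, Klrc1 took 85.3% in Sample_94P8 and 79.7% in Sample_302P8, Klrk1 66.0% in Sample_42B8 and Klrg1 62.0% in Sample_131P8.

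The mix of receptors differed widely between libraries of the same tissue and age. At 9 weeks in KC pancreas, Klrc1 made up 85.3% of the summed level per kilobase in Sample_94P8 and 17.2% in Sample_95P8, while Klrd1 made up 1.29% and 57.0%. At 13 weeks, Klrg1 made up 62.0% in Sample_131P8, 14.9% in Sample_132P8 and 1.91% in Sample_133P8. The same gene could thus lead 1 library and be minor in another of the same group.

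NKG2D (Klrk1) was detected in all 24 libraries, and its median was higher in KC blood than in KC pancreas, with overlap. In KC pancreas it was 38.0, 10.3 and 46.9 CPM at 4 weeks, 223 and 33.8 at 9 weeks, 29.0, 1.81 and 11.3 at 13 weeks, 89.2 and 60.6 at 20 weeks, and 62.6 and 68.8 at 30 weeks. In KC blood it was 429 and 51.0 CPM at 4 weeks, 82.6 at 9 weeks, 0.814, 32.6 and 140 at 13 weeks, 97.9 at 20 weeks, and 252 and 363 at 30 weeks. The tissues overlapped: the lowest value of all was in blood (Sample_131B8), and Sample_94P8 lay above 6 of the 9 blood libraries. Medians were 42.5 CPM in pancreas (n = 12) and 97.9 CPM in blood (n = 9), with means of 56.3 ± 58.8 and 161 ± 152 CPM (SD). The 8 counts of Klrk1 in Sample_131B8 and the 14 in Sample_132P8 were within 3 times the trace level of their carry-over set (0.887 CPM), and cannot be told apart from such traces.

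CD94 (Klrd1), the shared chain of the NKG2 receptors, had the narrowest range of the members that were above 0 in every KC library, 87.7-fold in KC pancreas and 9.90-fold in KC blood. In KC pancreas it was 74.7, 29.9 and 357 CPM at 4 weeks, 4.08 and 30.7 at 9 weeks, 8.29, 12 and 112 at 13 weeks, 20.2 and 48.8 at 20 weeks, and 21.1 and 59.8 at 30 weeks. In KC blood it was 24.5 and 130 CPM at 4 weeks, 38.5 at 9 weeks, 116, 17.7 and 20.7 at 13 weeks, 74.6 at 20 weeks, and 175 and 66.9 at 30 weeks. Libraries Sample_43P8 and Sample_133P8 stood above the other pancreas libraries of their ages, and the tissues overlapped. Every library held at least 31 counts of Klrd1, so CD94 transcripts were present throughout.

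NKG2A (Klrc1), the inhibitory partner of CD94, had the widest range of the members that were above 0 in every KC library, 3849-fold in KC pancreas and 738-fold in KC blood. In KC pancreas it was 15.6, 7.06 and 13.7 CPM at 4 weeks, 418 and 14.3 at 9 weeks, 0.774, 1.55 and 0.109 at 13 weeks, 1.77 and 61.4 at 20 weeks, and 214 and 8.19 at 30 weeks. In KC blood it was 19.3 and 36.4 CPM at 4 weeks, 27 at 9 weeks, 0.305, 16.0 and 16.1 at 13 weeks, 37.2 at 20 weeks, and 121 and 225 at 30 weeks. The 3 KC pancreas libraries of 13 weeks lay below all other KC pancreas libraries. At each of 9, 20 and 30 weeks 1 of the 2 KC pancreas libraries was far above the other. Both KC blood libraries of 30 weeks were above all younger KC blood libraries. The values of Sample_133P8 and Sample_204P8 were within 3 times the trace level of their sets (0.0752 and 0.863 CPM). Since 38.6% of the 50-base stretches of the Klrc1 transcripts also occur in Klrc2 or Klrc3, how reads were split between these genes is uncertain.

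NKG2C (Klrc2), the activating partner of CD94, had 249 counts in 12 libraries, 86 of them in Sample_205B8 (10.2 CPM). It was at 0 counts in 8 of 12 KC pancreas libraries and did not exceed 1.28 CPM there, while 2 of 9 KC blood libraries were at 0. The blood values were 4.36 and 5.25 CPM at 4 weeks, 0.896 at 9 weeks, 0, 0.244 and 0 at 13 weeks, 10.2 at 20 weeks, and 1.32 and 1.11 at 30 weeks. The pancreas libraries with counts were Sample_95P8 (1.28 CPM), Sample_302P8 (0.943), Sample_303P8 (0.787) and Sample_204P8 (0.136). Libraries Sample_42B8, Sample_43B8, Sample_205B8 and Sample_302B8 lay above every pancreas library, and 16.3% of the 50-base stretches of Klrc2 are shared with Klrc1 and Klrc3.

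Klrg1, the inhibitory receptor of late effector cells, was low in all groups, with medians of 2.12 CPM in KC pancreas and 2.78 CPM in KC blood. In KC pancreas it was 11.9, 9.71 and 8.95 CPM at 4 weeks, 0.526 and 0.274 at 9 weeks, 37.1, 2.58 and 2.71 at 13 weeks, 0.409 and 0.206 at 20 weeks, and 1.65 and 0.787 at 30 weeks. In KC blood it was 1.64 and 1.95 CPM at 4 weeks, 5.56 at 9 weeks, 2.24, 3.29 and 2.78 at 13 weeks, 26.0 at 20 weeks, and 2.12 and 8.63 at 30 weeks. All 3 pancreas libraries of 4 weeks were above every pancreas library of 9, 20 and 30 weeks, and Sample_131P8 was above them all. In blood, both libraries of 4 weeks were among the 3 lowest.

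The split of Klrg1 in KC pancreas lay exactly between the carry-over sets. The 6 libraries of set 1 ranged from 2.58 to 37.1 CPM and the 6 of set 2 from 0.206 to 1.65 CPM, with no overlap. Of the 9555 genes tested in KC pancreas, 48 (0.502%) had all 6 libraries of set 1 above all 6 of set 2. Klrg1 was the only member among them, and no member was among the 61 genes (0.638%) with set 2 above set 1. In KC blood the 3 libraries of set 1 had 1.64 to 2.24 CPM and the 6 of set 2 had 2.12 to 26.0 CPM. Ages differ between the sets there too, with both blood libraries of 4 weeks in set 1. The part of the set in these values was not tested. In pancreas the set cannot be told apart from the ages, 4 and 13 weeks against 9, 20 and 30 weeks.

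**Figure D2:**
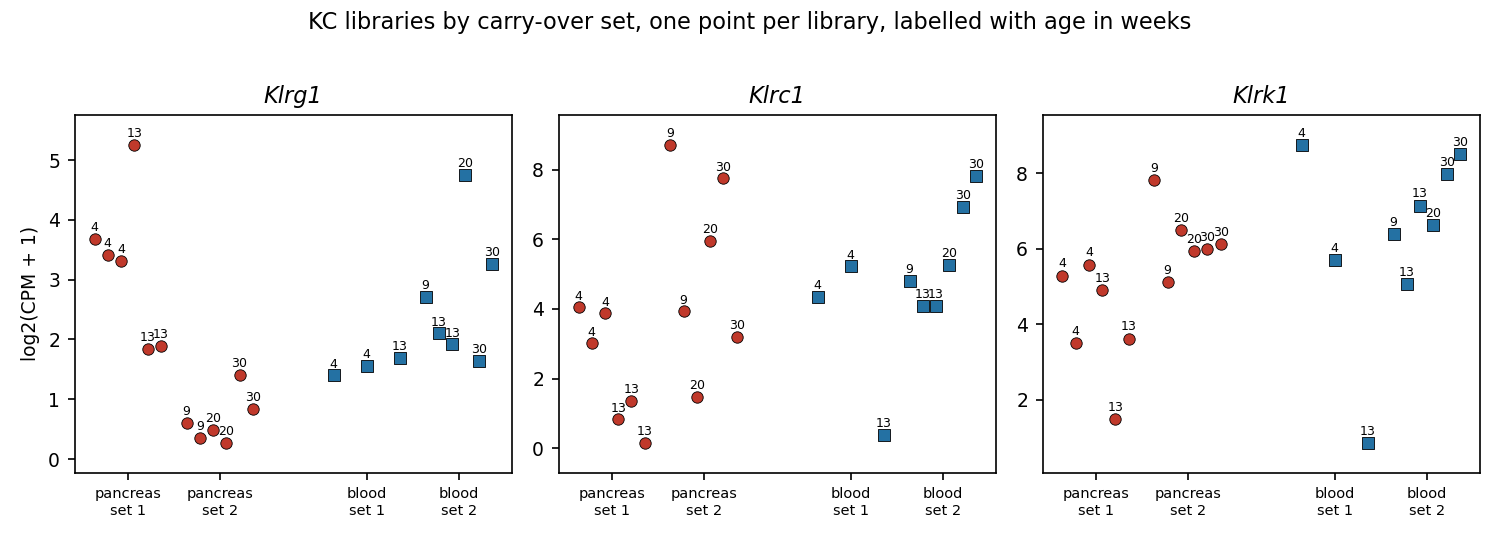
Levels of Klrg1, Klrc1 and Klrk1 (vertical axis, log2 of CPM + 1) in KC libraries by tissue and carry-over set (horizontal axis), with 1 point per library labelled with the age in weeks. Klrg1 in pancreas was 2.58 to 37.1 CPM in set 1 and 0.206 to 1.65 CPM in set 2, while Klrc1 and Klrk1 overlapped between the sets.

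NK1.1 (Klrb1c) was detected in 23 of 24 libraries and varied between near 0 and 57.2 CPM within a tissue. In KC pancreas it was 10.8, 0.687 and 0.316 CPM at 4 weeks, 4.73 and 16.1 at 9 weeks, 15.5, 0 and 28.7 at 13 weeks, 0.272 and 0.206 at 20 weeks, and 2.59 and 0.630 at 30 weeks. In KC blood it was 0.0909 and 0.309 CPM at 4 weeks, 8.16 at 9 weeks, 0.203, 23.5 and 57.2 at 13 weeks, 0.356 at 20 weeks, and 7.28 and 26.9 at 30 weeks. High and low libraries occurred side by side at 13 weeks in both tissues, and both tissues were low at 20 weeks. The values of Sample_42B8, Sample_204P8 and Sample_205P8 were within 3 times the trace level of their sets (0.0592 and 0.118 CPM), so the low level of pancreas at 20 weeks cannot be told apart from such traces. Klrb1c shares 17.0% of its 50-base stretches with Gm44511, which overlaps it on the same strand, and with Klrb1a and Klrb1b.

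Ly49G (Klra7) and Klre1 were close to absent. Klra7 had 13 counts, 10 in Sample_W3B8 (0.598 CPM) and 3 in Sample_95P8 (0.274 CPM), and the 0 counts in KC blood allow a level of up to 0.0334 CPM over those 9 libraries together. Klre1 had 122 counts in 9 libraries, of which 106 were in Sample_302B8 (14 CPM), and no other library exceeded 0.593 CPM. At these depths a lower level of either gene was not detectable.

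**Figure D3:**
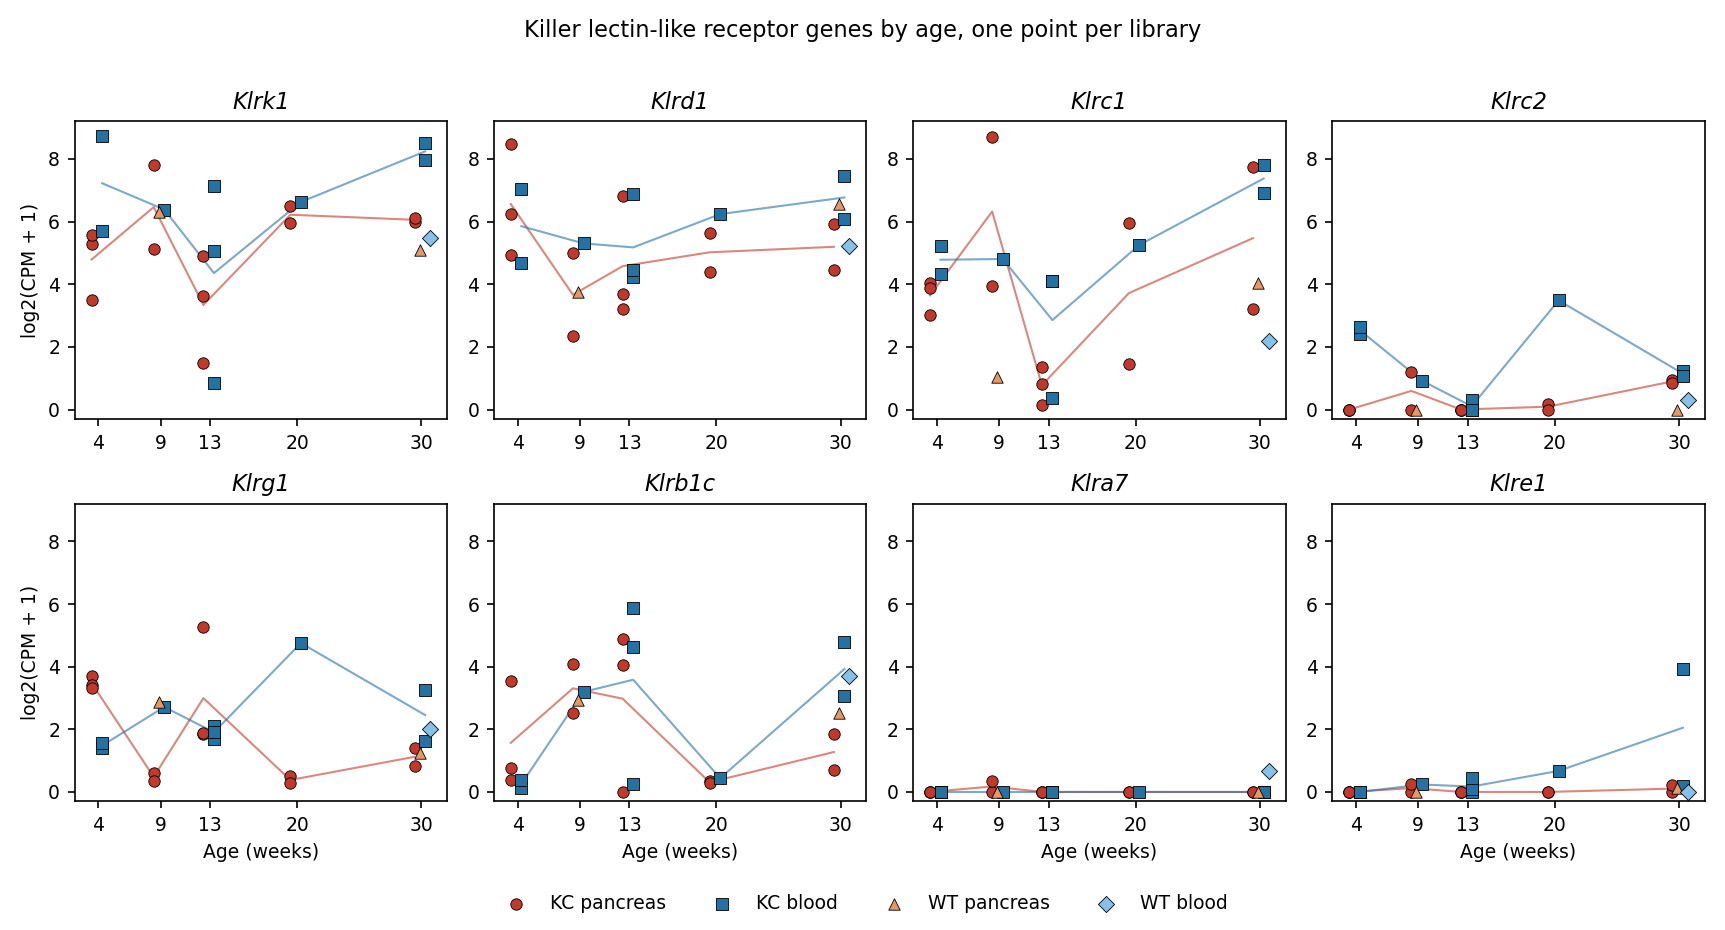
Levels of the 8 receptor genes (vertical axis, log2 of CPM + 1) against age in weeks (horizontal axis), with 1 point per library and lines through the mean of each age for KC pancreas and KC blood. The highest library was at 429 CPM for Klrk1, 357 for Klrd1 and 418 for Klrc1, and at 37.1 for Klrg1 and 57.2 for Klrb1c, while Klrc2, Klra7 and Klre1 stayed near 0 in KC pancreas.

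The first comparison asked whether T cells of the KC pancreas differ from those of KC blood, with age as a factor in an edgeR fit of all 21 KC libraries. None of the 6 members tested passed an adjusted p of 0.05, where 10 of 11059 genes (0.0904%) did, and Klra7 and Klre1 were too low to be tested. An unadjusted edgeR p under 0.05 (two-sided, as throughout) was found for 2 of the 6 members, both lower in pancreas, against 6.23% of all genes lower at that p, and DESeq2 called 0 of the 6 and 480 genes in all (5.71%). For Klrc2 the log2 fold change of pancreas over blood was -4.56 ± 1.71 (SE; edgeR p = 0.0104, adjusted p = 0.316), and for Klrk1 -1.63 ± 0.76 (edgeR p = 0.0376, adjusted p = 0.474). Without Sample_42B8 the value of Klrk1 was -0.90. The other values were -1.02 ± 0.92 for Klrc1, -0.50 ± 1.34 for Klrg1, -0.34 ± 0.71 for Klrd1 and 0.17 ± 1.21 for Klrb1c, with edgeR adjusted p-values of 0.784 to 0.986. The median over the 6 members was -0.76, against -0.12 over all genes tested. With SEs of this size, a p that misses the threshold does not show that levels were the same. Within the carry-over sets the values moved apart: in set 1 alone Klrk1 was at -2.51, Klrc2 at -7.65, Klrg1 at 1.94 and Klrb1c at 4.33, and in set 2 alone they were at -0.40, -1.89, -3.37 and -1.23. Of the platelet and red cell genes, 2 of 6 tested fell in pancreas, Ppbp (-5.14 ± 0.74, edgeR adjusted p = 0.000115) and Alas2 (-4.12 ± 0.90, edgeR adjusted p = 0.0358), and their part in the values of the members was not tested.

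Libraries of both tissues with the same number in their titles gave a like view. Klrk1 was higher in blood in 8 of 9 such pairs, with a median log2 ratio (CPM + 1) of -1.99 and a range of -5.25 to 4.05, and the exception was Sample_131P8 and Sample_131B8, where blood held the trace-level value. Klrc1 was higher in blood in 6 of 9 pairs, as were Klrd1 and Klrg1, and Klrb1c in 5. Nothing in the labels says that a number marks 1 animal.

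**Figure D4:**
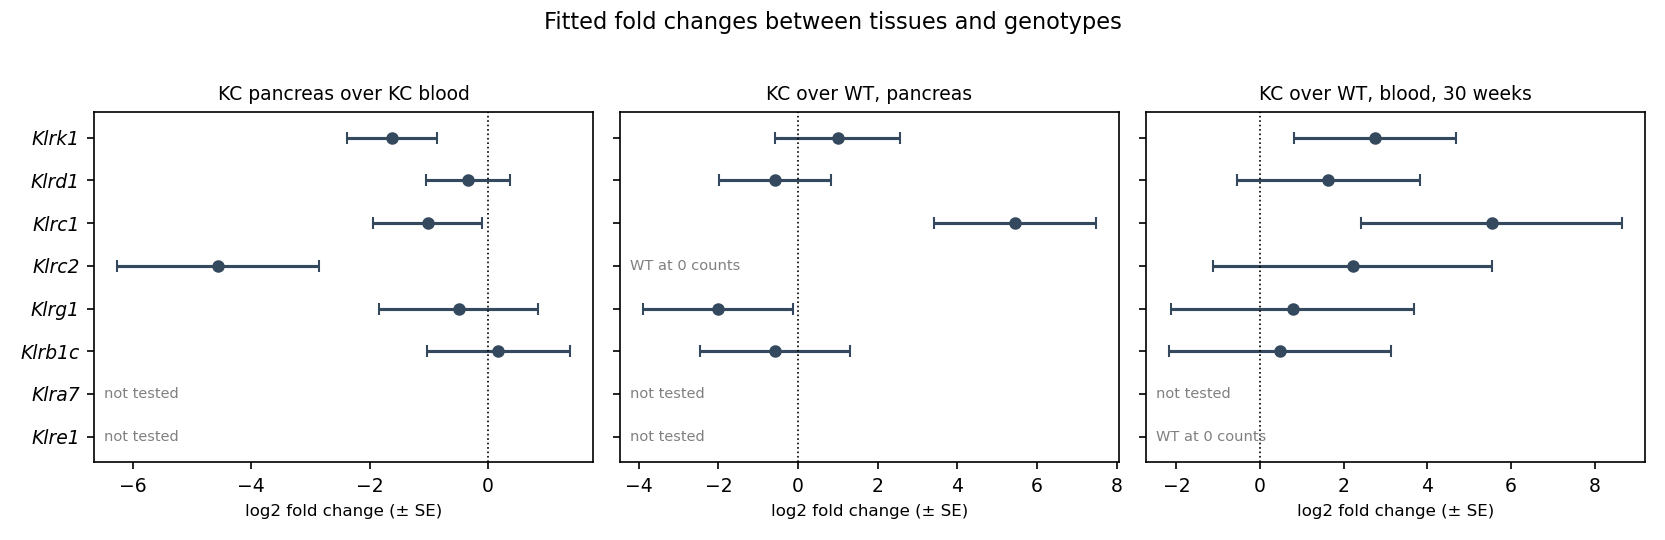
Fitted log2 fold changes of the receptor genes (horizontal axis, with SE bars from edgeR) for KC pancreas over KC blood, KC over WT in pancreas, and KC over WT in blood at 30 weeks. Klrc2 and Klrk1 lay lowest in pancreas over blood (-4.56 and -1.63), Klrc1 was at 5.45 over WT in pancreas, where Klrc2 is marked as at 0 counts in WT, and no value passed the adjusted threshold.

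The second set of comparisons followed age, the variable the study sampled most. Over the 12 KC pancreas libraries, 28 of 9555 genes (0.293%) changed with age at an edgeR adjusted p under 0.05, and none of the 5 members tested was among them, with adjusted p-values of 0.837 to 0.980. None had an unadjusted p under 0.05, against 8.95% of all genes, and DESeq2 called 0 of them and 422 genes (5.61%). In log2 per 10 weeks, the slopes were -1.29 ± 1.01 for Klrg1, -1.05 ± 1.31 for Klrb1c, -0.70 ± 0.54 for Klrd1, 0.28 ± 0.76 for Klrc1 and 0.21 ± 0.57 for Klrk1. With the carry-over set beside age, the slope of Klrg1 turned to 0.86, that of Klrd1 to 0.35, that of Klrc1 to -0.93 and that of Klrk1 to -0.54. Among the 28 genes called were 4 of the 9 acinar genes tested and 2 of the 3 fibroblast genes, all falling with age, and their part in the slopes was not tested. The slope of Klrc1 also rested on single libraries: it was -1.06 without Sample_302P8 and 1.34 without Sample_94P8.

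In KC blood, 0 of 9933 genes (0%) passed the edgeR threshold for age, 870 (8.76%) had an unadjusted p under 0.05, and DESeq2 called 317 (3.68%), none of them a member. Of the 6 members tested, none had an unadjusted p under 0.05. The largest slope was that of Klrc1, 0.78 ± 0.49 per 10 weeks (edgeR p = 0.127, adjusted p = 0.680), and it was positive without each of the 9 libraries in turn (0.42 to 1.08). The slopes were 0.68 ± 0.92 for Klrg1, 0.56 ± 1.12 for Klrb1c, -0.57 ± 0.89 for Klrc2, -0.15 ± 0.45 for Klrk1 and -0.05 ± 0.54 for Klrd1. With the carry-over set beside age, Klrk1 had a slope of 0.65 and Klrd1 of 1.17, Klrc2 of 0.14 and Klrb1c of -0.35. All 8 acinar genes tested in KC blood fell with age at an unadjusted edgeR p under 0.05, and none was called. The part of acinar genes in the slopes of the members was not tested.

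The difference of the trends between tissues was tested as an interaction in the 21 KC libraries, where 6 of 11059 genes (0.0543%) passed and no member did. Klrg1 had the largest difference among the members, with a slope lower in pancreas than in blood by -1.98 ± 1.38 log2 per 10 weeks (edgeR p = 0.160, adjusted p = 0.753). Klrc2 followed with 1.77 ± 1.26, Klrb1c with -1.57 ± 1.78, Klrd1 with -0.64 ± 0.74, Klrc1 with -0.49 ± 0.95 and Klrk1 with 0.38 ± 0.71. None of the 6 had an unadjusted p under 0.05 in edgeR, against 8.33% of all genes, and DESeq2 called 0 of them and 242 genes (2.78%).

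**Figure D5:**
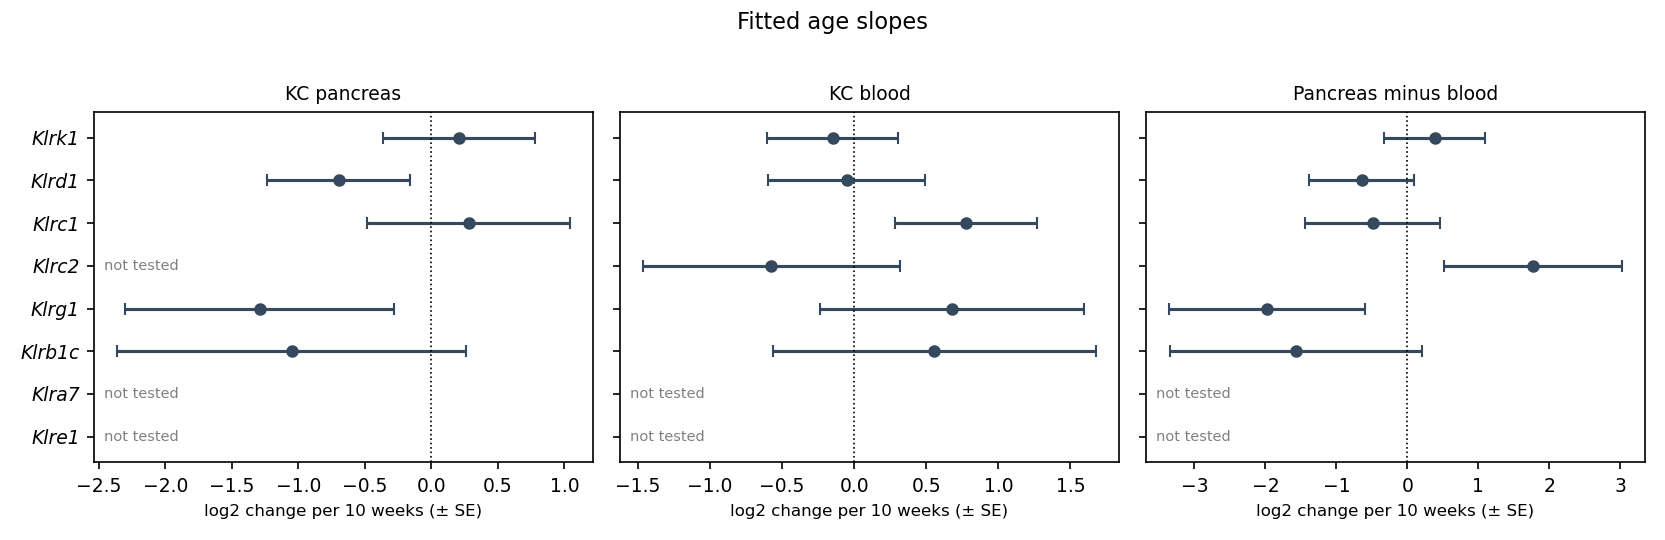
Fitted age slopes of the receptor genes in log2 per 10 weeks (horizontal axis, with SE bars from edgeR) in KC pancreas, in KC blood, and their difference. Klrg1 had a slope of -1.29 in pancreas and 0.68 in blood, and Klrc1 of 0.28 and 0.78.

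Each later age was also set against 4 weeks in KC pancreas, where 5 members were tested and none was called by edgeR at any age. The genes called were 7 of 10552 (0.0663%) at 9 weeks, 26 (0.246%) at 13 weeks, 9 (0.0853%) at 20 weeks and 7 (0.0663%) at 30 weeks. The member values furthest from 0 were those of Klrg1 and Klrc1. Klrg1 had log2 fold changes of -4.68 ± 2.36 at 9 weeks (edgeR adjusted p = 0.771), 0.92 ± 1.69 at 13 weeks (adjusted p = 0.790), -4.69 ± 2.37 at 20 weeks (adjusted p = 0.383) and -2.96 ± 2.13 at 30 weeks (adjusted p = 0.612). DESeq2, fitted to the same genes, called Klrg1 lower at 9 weeks (-4.71, adjusted p = 0.0309) and at 20 weeks (-4.66, adjusted p = 0.0229), among the 1.41% and 5.84% of genes that it called lower. Klrg1 stayed lower without each pancreas library in turn in edgeR, at -5.74 to -4.04 at 9 weeks and -5.17 to -4.26 at 20 weeks. The libraries of 9 and 20 weeks are all of set 2 and those of 4 weeks all of set 1, so age and set cannot be told apart in these values. Acinar genes moved with the same ages: the 6 markers summed to 1226, 6306 and 3461 CPM at 4 weeks, to 70.8 to 467 CPM at 13 weeks, to 0.103 to 0.366 CPM at 9 and 20 weeks, and to 0.236 and 59.0 CPM at 30 weeks. Of the 9 acinar genes tested, 4 fell at 9 weeks, 1 at 13 weeks, 4 at 20 weeks and 3 at 30 weeks (edgeR, adjusted p under 0.05). The 5 fibroblast genes tested were all negative at each of these ages, with medians of -11.3 at 9 weeks and -11.2 at 20 weeks, and none was called. In KC blood the 6 acinar markers summed to 52.4 CPM in Sample_131B8, 54.2 in Sample_42B8 and 56.8 in Sample_43B8, all of set 1. They summed to at most 1.40 CPM in the KC blood libraries of set 2, so these markers also split by set in blood. The part of acinar and fibroblast genes in the values of Klrg1 was not tested.

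Klrc1 had log2 fold changes against 4 weeks of 4.32 ± 1.74 at 9 weeks (edgeR p = 0.0176, adjusted p = 0.613), -3.02 ± 1.61 at 13 weeks (adjusted p = 0.279), 1.69 ± 1.62 at 20 weeks (adjusted p = 0.669) and 3.27 ± 1.68 at 30 weeks (adjusted p = 0.449). Single libraries set 3 of these values: they were -0.43 at 9 weeks without Sample_94P8, -2.45 at 20 weeks without Sample_205P8 and -0.57 at 30 weeks without Sample_302P8. At 13 weeks Klrc1 was lower without each library in turn, at -4.26 to -2.48. Klrd1 at 9 weeks was -3.79 ± 1.79 (edgeR p = 0.0406, adjusted p = 0.728), and -1.96 without Sample_43P8. Klrk1 ranged from -0.69 ± 1.37 at 13 weeks to 2.07 ± 1.51 at 9 weeks, and Klrb1c from -3.56 ± 2.42 at 20 weeks to 2.75 ± 1.92 at 13 weeks. Without Sample_94P8 the value of Klrk1 at 9 weeks was -0.62.

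The last comparison set KC against WT mice. In WT pancreas, Klrk1 was 77.4 CPM at 9 weeks and 32.9 at 30 weeks, Klrd1 12.5 and 93.4, Klrc1 1.04 and 15.3, Klrg1 6.36 and 1.36, and Klrb1c 6.65 and 4.79. The KC libraries of these ages had 418, 14.3, 214 and 8.19 CPM of Klrc1, so that 1 WT value lay below all 4 and the other above 2 of them. In an edgeR fit of 14 pancreas libraries, 28 of 12374 genes (0.226%) differed between KC and WT over 9 and 30 weeks, and none of the 6 members tested did. Klrc1 was the member with the smallest p, at a log2 fold change of 5.45 ± 2.03 (edgeR p = 0.00738, adjusted p = 0.757). DESeq2 called it higher in KC (5.54, adjusted p = 0.0247), among the 1.22% of genes that it called higher. The edgeR value was 3.02 without Sample_94P8 and 7.83 without Sample_W3P8.

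The other values in pancreas were -2.01 ± 1.89 for Klrg1, 1.0 ± 1.57 for Klrk1, -0.58 ± 1.88 for Klrb1c and -0.57 ± 1.41 for Klrd1. Klrc2 was at 0 counts in both WT pancreas libraries and averaged 0.753 ± 0.543 CPM (SD, n = 4) in KC. That mean was 5.79-fold the level of 3 counts over both WT libraries (0.130 CPM). It includes Sample_94P8 at 0 counts and rests on 14 counts in Sample_95P8, 8 in Sample_302P8 and 5 in Sample_303P8. Klrc2 was tested in the same edgeR fit and was not called. Genotype and carry-over set cannot be told apart here, since the WT libraries are all of set 1 and the KC libraries of 9 and 30 weeks all of set 2. Genes of pancreatic acinar cells, which secrete digestive enzymes, also differed between these libraries. Their 6 markers summed to 2732 CPM at 9 weeks and 694 CPM at 30 weeks in WT pancreas, and to 0.132 and 0.366 CPM at 9 weeks and 0.236 and 59.0 CPM at 30 weeks in KC pancreas, so that every KC value lay below both WT values. All 9 acinar genes tested of a longer list fell in KC (edgeR, adjusted p under 0.05), making up 9 of the 28 genes called, and their part in the values of Klrc1 and the other members was not tested.

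In blood of 30 weeks, the WT library had lower values of Klrk1 (43.9 CPM), Klrd1 (36.5) and Klrc1 (3.59) than both KC libraries, which had 252 and 363, 175 and 66.9, and 121 and 225 CPM. Genotype and carry-over set cannot be told apart here either, since the WT library is of set 1 and both KC libraries of set 2. Platelet and red cell genes summed to 588 CPM in the WT library and to 82.9 and 341 CPM in the KC libraries. The 6 acinar markers summed to 57.5 CPM in the WT library and to 0.397 and 0.139 CPM in the KC libraries. The part of these genes in the values of the members was not tested. With 1 WT library, the fit took its spread from the KC libraries. edgeR called 0 of 12496 genes (0%), with 354 genes (2.83%) at an unadjusted p under 0.05 and 11 (0.0996%) called by DESeq2, and none of the 7 members tested reached an unadjusted p under 0.05. The log2 fold change of KC over WT was 5.54 ± 3.12 for Klrc1, 2.75 ± 1.95 for Klrk1, 2.21 ± 3.34 for Klrc2, 1.63 ± 2.19 for Klrd1, 0.78 ± 2.90 for Klrg1 and 0.48 ± 2.66 for Klrb1c, each with an edgeR adjusted p of 1. Klre1 was at 0 counts in WT blood, and its KC mean of 7.09 CPM was at least 39.5-fold higher than 3 counts there (0.179 CPM), a value carried by Sample_302B8 alone (14 CPM against 0.139 in Sample_303B8).

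The WT pair of 30 weeks compares 1 pancreas and 1 blood library, so the values carry counting error only, as exact Poisson intervals of 95%. Klrd1 was 93.4 CPM (88.1 to 98.9) in pancreas and 36.5 (33.7 to 39.5) in blood, and Klrc1 was 15.3 (13.2 to 17.6) and 3.59 (2.74 to 4.62). Klrk1 was 32.9 (29.8 to 36.2) and 43.9 (40.8 to 47.2), Klrg1 1.36 (0.790 to 2.17) and 3.05 (2.27 to 4.01), and Klrb1c 4.79 (3.65 to 6.16) and 12 (10.4 to 13.7). The CD94 and NKG2A genes were thus higher in the pancreas library and the other 3 in the blood library. No replicate check exists for this pair.

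Partner genes of the receptors were measured in the same libraries. Hcst, the adaptor of NKG2D, had medians of 19.5 CPM (3.42 to 45.5) in KC pancreas and 26.1 CPM (5.71 to 121) in KC blood, and Tyrobp, the adaptor of NKG2C and of other activating receptors, 0.732 (0 to 24) and 0.509 (0.116 to 25). H2-T23, the Qa-1 ligand of CD94 receptors, had medians of 18.1 and 21 CPM, and H60b, a ligand of NKG2D, of 69.7 and 123 CPM, with ranges of 1.94 to 302.7 and 2.09 to 212. Of the other ligand genes of NKG2D, Raet1b, Raet1c, Raet1d and Raet1e had 0 counts, as had the cadherin genes Cdh2 and Cdh4. Reads that did not align uniquely, 15.8% to 22.8% of those tallied, were given to no gene. Counts of 0 therefore do not show that these transcripts were absent.

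None of these partner genes was called between the KC tissues or in the age trend of either tissue. Of the 17 adaptor and signalling genes tested between KC pancreas and KC blood, 0 were called by edgeR, and the median log2 fold change was -0.10, against -0.12 over all genes. Of the 6 ligand genes tested, 0 were called (median 0.03). The values were -0.24 ± 0.91 for Hcst, -0.33 ± 1.79 for Tyrobp, 0.25 ± 0.82 for H2-T23 and 0.00 ± 0.77 for H60b. The genes of these lists with the highest CPM, Pik3r1, Lat, Lck and Fyn of the signalling genes and B2m, H2-K1 and H2-D1 of the MHC class I molecules, lay between -0.19 and 0.87. At 13 against 4 weeks in KC pancreas, B2m, the light chain of MHC class I, rose (1.93 ± 0.44, edgeR adjusted p = 0.0398), the only called gene among the 17 signalling genes and 7 ligands tested there.

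Of the 28 other Klr symbols, 20 were on a list of family genes, 7 of them at 0 counts. Between the KC tissues 4 of the 20 were tested and 0 were called (median -2.87), and in the pancreas trend 2 were tested and 0 were called. Klrc3, a further NKG2 gene, had 685 counts in 14 libraries and a log2 fold change of -3.72 ± 1.97 for pancreas over blood (edgeR adjusted p = 0.539). Klrb1a had 572 counts in 17 libraries and a value of 0.27 ± 1.23 (adjusted p = 0.974 in edgeR). Clec2d and Clec2i, which encode ligands of the Klrb1 family, had values of -0.51 ± 1.02 and -0.75 ± 0.98.

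Genes of effector and memory T cells, with which Klr genes are known to be expressed, were likewise not called between the KC tissues. Of 24 tested, 0 were called by edgeR, with a median log2 fold change of 0.20. The 4 with the highest CPM were Runx3 (-0.73 ± 0.57), a transcription factor of cytotoxic T cells, the granule gene Nkg7 (-0.08 ± 0.56), the chemokine gene Ccl5 (-0.89 ± 0.56) and the cytokine receptor gene Il2rb (0.70 ± 0.60). Of 10 genes of naive and memory cells, 0 were called (median 0.26), among them Tcf7 (0.95 ± 0.34), Satb1 (0.32 ± 0.33) and Il7r (-0.19 ± 0.33). In the age trend of pancreas 21 effector and memory genes were tested and 0 were called, and in that of blood 22 and 0.

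Likeness between genes was described over the 24 libraries, which differ in depth and carry-over set, by Pearson's r of log2 (CPM + 1). Among member pairs the highest value was that of Klrk1 with Klrc1, 0.66 over all libraries, 0.64 over the 12 of KC pancreas and 0.83 over the 9 of KC blood. Klrd1 had an r of 0.02 with Klrc1, its partner gene, and of -0.08 with Klrk1. The genes most like each member, among 10072 compared, were Olfr856-ps1 (0.87), Ccdc186 (0.85) and 5830416P10Rik (0.85) for Klrk1, and Plaa (0.80), Slc4a7 (0.78) and Vmn1r58 (0.77) for Klrc1. For Klrd1 they were Rprd1a (0.70), Smg6 (0.69) and Sri (0.66), and for Klrc2 Cnih1 (0.81), Rbm48 (0.79) and Cd244 (0.78). For Klrg1 they were Uchl4 (0.78), Cmtm7 (0.70) and Abi3bp (0.70), and for Klrb1c Acvr1b (0.83), Snx30 (0.82) and Nup54 (0.81). Except for Cd244, a receptor gene of natural killer cells and memory CD8 T cells, none of these is a gene of the lists used here.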

How the data were processed

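Per the submitters' processing notes, reads were processed with TopHat, SAMtools, HTSeq and DESeq on mm10. Versions, settings, annotation and strand use are not given in the sources used here. The deposited files hold raw counts per gene symbol, whole numbers that the authors did not normalise, for 24421 genes. Their 5 further tallies, of reads with no gene, were left out. Of the tallied reads, 11.7% to 32.5% were assigned to genes.

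CPM was the count over a library's counts in genes, and CPM per kilobase divided it by the exon union of GENCODE M21, of the same build. Genes were filtered by filterByExpr (at least 10 counts), scaled by TMM and tested by robust quasi-likelihood F-tests in edgeR 4.0.16 (R 4.3.3), with Benjamini-Hochberg adjustment over all genes of a comparison and a threshold of 0.05. Dividing the size of a log2 fold change by the root of its F statistic gave the SE. Pancreas against blood had age as a factor, the trends had age as a number, and KC against WT pancreas was the mean difference at 9 and 30 weeks. DESeq2 1.42.0 was an alternative. The tests were tried on simulated counts.

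Carry-over sets came from 76 genes with at least 1000 counts in 1 library and at least 20 times the next. The members and lists were chosen with earlier results of these data known. Named were the 8 members and, of the lists of other receptors, adaptors and signalling, ligands, effector and memory, and naive and memory genes, those called and up to 4 with the highest mean CPM, except 1 gene that is not reported here. Genes at 0 counts were to be given as a count. Hcst, H2-T23, Ppbp, Alas2, H60c, Ulbp1, Raet1a, Cdh1 and the ligand genes named at 0 counts were added after their values were seen. So were the single natural killer cell markers, Tyrobp among them. The myeloid, B cell, CD4 T cell, acinar, fibroblast, and platelet and red cell values were also added then. Most alike genes were the 3 with the highest r among genes with at least 10 counts in at least 6 libraries. Alternatives other than those named as chosen later were listed before these fits were run.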

Additional observations from a re-analysis of the deposited data

Results flagged for a closer look

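Among the 7 receptor genes with counts in KC blood (n = 9), 3 had a single library whose distance from its nearest neighbour was large against the range of the group. Chance marks about 1 in 20 groups in this way if values are normally distributed, and the rate for values as skewed as these was not measured. The 12 KC pancreas libraries were too many for this rule, and they also held single high libraries, such as Sample_43P8 for Klrd1 (357 CPM, with the next at 112) and Sample_131P8 for Klrg1 (37.1 CPM, with the next at 11.9). Klrg1 was 26.0 CPM in Sample_205B8, where the next library had 8.63 CPM. Klrb1c was 57.2 CPM in Sample_133B8, with the next library at 26.9 CPM. Klre1 was 14 CPM in Sample_302B8, with the next at 0.593 CPM. The 3 values came from 3 different libraries, and their origin was not tested.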

How the results depend on the processing

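No member was called by edgeR under any alternative. DESeq2 called 1 member in each of 3 comparisons (Klrg1 at 9 and at 20 weeks, Klrc1 between genotypes in pancreas). These were among the 1.41%, 5.84% and 1.22% of genes that it called in the same directions. Of the 977 alternative fits of members, 751 were edgeR fits without 1 library, so these calls are not a share of 977 separate tests. Numbers of genes called varied widely. Pancreas against blood gave 34 without a filter, 480 with DESeq2, 65 without an age term, 6 in set 1 alone, 2 in set 2 alone and 4 without the 4-week libraries, an alternative chosen after seeing the data. The pancreas trend gave 686 without a filter, 422 with DESeq2 and 0 with set beside age, and the blood trend 102 without a filter and 317 with DESeq2. The difference of trends gave 0 with DESeq's size factors and 242 with DESeq2. Against 4 weeks, no filter gave 25, 156, 56 and 27 at 9, 13, 20 and 30 weeks, DESeq2 207, 795, 741 and 572, and size factors 77 at 13 and 3 at 30 weeks. KC against WT gave 158 in pancreas and 11 in blood with DESeq2. The cause of these changes was not tested.

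Title numbers were not read as pairing, since 2 of 9 pairs correlated above 0.1 (r of -0.04 to 0.49) and 4 of 9 correlated best with their own number. With the number as a replicate block in 18 libraries, 14 genes and 0 members were called between tissues and 0 for the difference of trends, Klrg1 was 0.0672 and Klrb1c -0.31 between tissues, and the difference of trends of Klrc1 was 0.49. The same 18 libraries without the block, chosen after seeing the data, gave 0.25 and -0.32.

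Other signs that turned between tissues were those of Klrc1 (0.62), Klrg1 (0.45) and Klrb1c (-0.39) without an age term, of Klrg1 in set 1 alone (1.94), of Klrc1 (0.74) and Klrb1c (-1.23) in set 2 alone, and of Klrb1c without the 4-week libraries (-0.57). With set beside age, pancreas slopes became -0.54 for Klrk1, 0.35 for Klrd1, -0.93 for Klrc1 and 0.86 for Klrg1, and blood slopes 0.65 for Klrk1, 1.17 for Klrd1, 0.14 for Klrc2 and -0.35 for Klrb1c. The median level of Klrk1 was 44.0 CPM per kilobase with the principal transcript length, chosen after seeing the data.

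Leaving out 1 library gave 6 to 21 genes between tissues, 10 to 31 for the pancreas trend, 0 to 12 for blood, 0 to 13 for their difference, 1 to 18, 0 to 143, 1 to 30 and 1 to 27 against 4 weeks, and 4 to 29 and 0 to 2 between genotypes in pancreas and blood. KC against WT blood without Sample_W3B8 could not be fitted. Signs turned in 31 of 751 such fits. Between tissues the ranges were -1.09 to 0.56 for Klrg1, -0.84 to 0.19 for Klrd1 and -0.28 to 0.78 for Klrb1c. Slopes ranged from -1.06 to 1.34 for Klrc1 in pancreas and, in blood, from -0.31 to 0.30 for Klrd1 and -0.46 to 0.84 for Klrk1. Differences of slopes ranged from -1.0 to 0.0735 for Klrd1, -1.83 to 0.58 for Klrc1 and -0.63 to 0.80 for Klrk1. Against 4 weeks the ranges were -0.62 to 2.94 for Klrk1 and -0.43 to 5.28 for Klrc1 at 9 weeks, -0.86 to 1.42 for Klrg1 and -3.21 to 0.80 for Klrd1 at 13 weeks, -2.45 to 2.68 for Klrc1 at 20 weeks, and -0.57 to 4.28 for Klrc1 and -2.51 to 1.74 for Klrb1c at 30 weeks. KC against WT ranged in pancreas from -0.40 to 1.45 for Klrk1, -4.06 to 0.0458 for Klrg1 and -1.35 to 0.19 for Klrb1c, and in blood from -0.66 to 1.49 for Klrg1 and -0.85 to 1.16 for Klrb1c. Depth limits Klrc2, Klra7 and Klre1, which had 249, 13 and 122 counts in all.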
